A study of Rattus norvegicus with 54 samples.

Results

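The expression of 40 genes of glucose uptake, glycolysis and glycogen metabolism was examined in the left ventricle of infarcted rats. The genes were given as a list of symbols and matched to the gene column of the count tables, and all 40 were among the 40319 genes listed in every library. Female athymic rats of the strain F344/NJcl-rnu/rnu, which have few T cells, were operated at 8 weeks of age. They formed 3 groups of 6 animals. Sham animals had surgery without coronary ligation, MI animals had a permanent ligation of the left anterior descending artery and no treatment, and cell sheet-treated animals had the same ligation followed by an SMC-EPC bi-level cell sheet on the epicardium. The sheet was made of human endothelial progenitor cells and of smooth muscle cells derived from human mesenchymal stem cells. Tissue was taken 1 week after surgery from an infarct zone (anterior wall), a border zone (lateral wall) and a remote zone (septum) of each heart. This gave 54 libraries of polyadenylated RNA in 9 groups of 6. Zones of a heart share the animal, and sham hearts have no infarct, so that zone names give only the position there.

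Glucose enters heart cells through facilitative transporters, of which GLUT1 (Slc2a1) is found in most cell types and GLUT4 (Slc2a4) is the insulin-responsive transporter of muscle and fat. Glycolysis converts glucose to pyruvate, which is either reduced to lactate or passed to the pyruvate dehydrogenase complex of mitochondria. Many of the steps have a form that prevails in striated muscle (Pfkm, Pgam2, Eno3, Pygm) and a form found in other tissues. The adult heart oxidizes mainly fatty acids, and hypoxia and heart failure are known to shift it towards glucose. In bulk tissue, fewer cells of a type and less RNA per cell cannot be told apart, and this holds for every level and difference given here.

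Between 12699204 and 23397754 counts were assigned to genes in each library. Sham replicate 5 differed from the remaining sham animals. The mean log2 CPM of its cardiomyocyte marker list was 10.9 to 11.6 (12.2 to 12.5 in the other sham libraries), that of its macrophage list 7.2 to 7.66 (4.52 to 5.52), that of its proliferation list 4.88 to 5.21 (1.65 to 2.62) and that of its lymphocyte list 3.03 to 3.78 (-2.12 to -0.26). The T cell gene Cd3e was at 93.9 to 124 CPM in its libraries and at most 7.35 in those of MI hearts, which goes against the athymic strain named for all animals. Whether this animal carries the right label was not tested, and every comparison with sham includes it unless said otherwise. The border zone library of cell sheet-treated replicate 1 had the lowest cardiomyocyte score of all libraries, 4.15. The numbers of genes called are also given without these animals, and the calls that turned on them are named. Libraries of a group are named technical replicates in the labels, and the study describes separate animals. The p-values measure the spread between these libraries.

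Promoter entries were found for 37 of the 40 genes in a RefSeq table of the GRCr8 assembly, all but Slc2a3, Slc2a4 and Pgk1. The letters ACGTG, a form of the core of the hypoxia response element, were searched on both strands. The search covered the 250 bases before the first transcript start listed for each gene. GCGTG, the other form of this core, was not searched. ACGTG was present in 17 of the 37 genes (45.9%) and in 16.6% of all 33469 promoters of the table. CACGTG, an E-box that contains ACGTG on both strands, was present in 5 of the 37 (13.5%) and in 5.59% of all promoters. Such a match is a description of the letters and no measurement of binding. The stretches before the starts of Slc2a1, Ldha, Ldhb and Hk2 are shown because the isoform ratios and the effect of the cell sheet described further on turn on these genes, with matches to ACGTG or its complement in capitals.
Slc2a1, chr5:138002272-138002521, plus strand: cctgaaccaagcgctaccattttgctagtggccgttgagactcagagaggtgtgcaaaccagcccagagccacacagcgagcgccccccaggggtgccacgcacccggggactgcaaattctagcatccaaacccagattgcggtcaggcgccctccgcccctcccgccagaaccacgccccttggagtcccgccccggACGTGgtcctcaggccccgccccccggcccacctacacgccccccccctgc
Ldha, chr1:106507842-106508091, plus strand: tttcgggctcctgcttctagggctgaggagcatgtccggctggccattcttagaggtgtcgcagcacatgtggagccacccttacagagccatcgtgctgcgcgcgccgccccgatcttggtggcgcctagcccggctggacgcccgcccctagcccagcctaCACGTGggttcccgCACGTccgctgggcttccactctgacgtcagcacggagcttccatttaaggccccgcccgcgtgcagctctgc
Ldhb, chr4:177177409-177177658, minus strand: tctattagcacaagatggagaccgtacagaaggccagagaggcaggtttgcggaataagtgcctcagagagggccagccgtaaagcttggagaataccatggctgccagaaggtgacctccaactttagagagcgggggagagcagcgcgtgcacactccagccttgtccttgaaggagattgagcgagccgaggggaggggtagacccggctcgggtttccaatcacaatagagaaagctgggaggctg
Hk2, chr4:116841276-116841525, minus strand: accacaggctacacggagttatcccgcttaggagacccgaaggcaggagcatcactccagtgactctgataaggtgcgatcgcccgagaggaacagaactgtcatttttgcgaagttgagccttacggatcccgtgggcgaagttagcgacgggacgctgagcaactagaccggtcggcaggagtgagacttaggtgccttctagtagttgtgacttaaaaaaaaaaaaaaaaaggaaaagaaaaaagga
Slc2a1 had 1 match, whose first base lay 51 bases before the start. Ldha had 3, at 87, 86 and 73 bases, of which the first 2 form the E-box. Ldhb and Hk2 had no ACGTG in this window, which does not exclude GCGTG there.

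The MI group was compared with sham in each zone with edgeR's quasi-likelihood test, which called a gene at a Benjamini-Hochberg adjusted p under 0.05 over all genes tested. Most of the 40 genes were lower after MI. In the infarct zone 24 of the 40 (60%) were lower and 5 (12.5%) higher, against 27.2% lower and 22.7% higher among all genes tested. The median log2 fold change was -0.91 over the 40 genes and -0.02 over all genes. In the border zone 26 were lower (65.0%; background 23.2%) and 3 higher (7.5%; background 18.4%), with a median of -0.70. In the remote zone, away from the ligated territory, 21 were lower (52.5%; background 14.2%) and 1 was higher (2.5%; background 11.7%), with a median of -0.56. The 12 genes of the cardiomyocyte marker list moved the same way. All 12 were lower in the infarct and border zones (medians -1.85 and -1.55) and 5 of 12 in the remote zone (median -0.54). Their score ran from 8.37 to 11.7 in MI infarct zones and from 11.1 to 12.5 in sham. With this score as a covariate, 0, 5 and 16 of the 40 genes were called in the 3 zones in the order infarct, border, remote (0%, 12.5% and 40%), against 5.81%, 7.28% and 16.1% of all genes tested in the same fits. Without sham replicate 5 the numbers of genes called higher were 12, 11 and 7, and lower 24, 26 and 26, in the same order. Together these are 90%, 92.5% and 82.5% of the 40 genes, and in the same fits 64.8%, 60.8% and 46.5% of all genes tested were called. The genes called higher without this animal but not with all animals were Eno1 (0.50 ± 0.14, edgeR adjusted p = 0.0074), Hk3, Pfkfb3, Pfkl, Pfkp, Pygl and Slc2a1 in the infarct zone, and Aldoc, Hk3, Pfkfb3, Pfkl, Pfkp, Pygl, Slc16a3 and Slc2a1 in the border zone. In the remote zone they were Eno2, Hk3, Pfkfb4, Pygl, Slc16a3 and Slc2a1, while Eno3, Ldha, Pfkfb2, Pgam2 and Tpi1 were called lower without it but not with all animals. Pygl, the glycogen phosphorylase of liver, then differed from sham by 2.05 ± 0.27, 1.84 ± 0.24 and 1.19 ± 0.17 from infarct to remote zone (edgeR adjusted p = 8.94e-05, 0.000106 and 9.48e-05).

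The cell sheet-treated group was compared with MI. In the remote zone 12 of the 40 genes were higher (30.0%; background 10.3%) and 1 was lower (2.5%; background 6.79%), with a median log2 fold change of 0.46. This comparison and that of MI with sham share the MI libraries. In the border zone 3 genes were higher (7.5%; background 8.47%) and 0 lower (background 9.48%). In the infarct zone 0 genes were called by edgeR in either direction (background 0% and 0%) and 0 by DESeq2. There 1 of the 40 genes and 1341 of all 16196 genes tested had an unadjusted p under 0.05 (edgeR). The number called in the remote zone depended on single animals. It was 32 (27 higher and 5 lower) without cell sheet-treated replicate 1 and 5 (all higher) without MI replicate 5, 7 without cell sheet-treated replicate 2 or 5 or MI replicate 3, and 8 without cell sheet-treated replicate 3 or MI replicate 4 or 6. The share of all genes tested that was called moved with it, from 17.1% with all animals to 41.6% without cell sheet-treated replicate 1, 7.06% without MI replicate 5 and 7.04% to 14.4% in the fits with 7 or 8 genes. Without cell sheet-treated replicate 1, 15 genes were called higher and 4 lower that were not called with all animals, among them Gapdh (0.59), Ldhb (0.67), Tpi1 (0.64) and Pdk4 (0.90), and Hk3 (-2.97) and Slc2a1 (-0.55). The cardiomyocyte score of the remote zone was 11.2 to 12.5 in the treated group and 11.5 to 12.1 in MI, and 17 of the 40 genes (42.5%; all genes 18.1%) were called with it as a covariate. The macrophage score was 4.79 to 6.93 in the treated group and 5.85 to 7.10 in MI, and the mural cell score was 6.11 to 6.87 and 5.26 to 5.73, with no overlap. The fibroblast score was 7.53 to 10.8 in the treated group (median 8.13) and 8.63 to 10.2 in MI (median 9.80). The neutrophil score was -1.27 to 1.26 (median -0.31) and 0.65 to 3.75 (median 1.89) in the same order. The part of these cells in the remote zone result was not tested.

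The cell sheet-treated group was also compared with sham. In the infarct zone 23 genes were lower (57.5%; background 29.2%) and 8 higher (20.0%; background 28.6%). There 11 of 12 cardiomyocyte markers were lower (median -2.51), and 6 of 8 fibroblast and 5 of 8 macrophage markers were higher (medians 2.91 and 1.68). With the cardiomyocyte score as a covariate 0 of the 40 genes and 7.66% of all genes were called. In the border zone 15 were lower (37.5%; background 23.2%) and 4 higher (10%; background 20.4%), beside 3 of 12 cardiomyocyte markers lower and 6 of 8 fibroblast and 4 of 8 macrophage markers higher. In the remote zone edgeR called 0 genes (background 0.0066% higher and 0% lower) and DESeq2 called 0. There 1 of the 40 genes and 1520 of all 15157 genes tested had an unadjusted p under 0.05 (edgeR). A remote zone difference from sham was still not detected with sham replicate 5, cell sheet-treated replicate 1 or both left out. For the border zone 32 genes (80%; all genes 61.6%) were called without sham replicate 5 and 33 (82.5%; all genes 60.7%) without both animals. Without sham replicate 5 the infarct zone had 37 genes called (92.5%; all genes 70%).

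**Figure D1:**
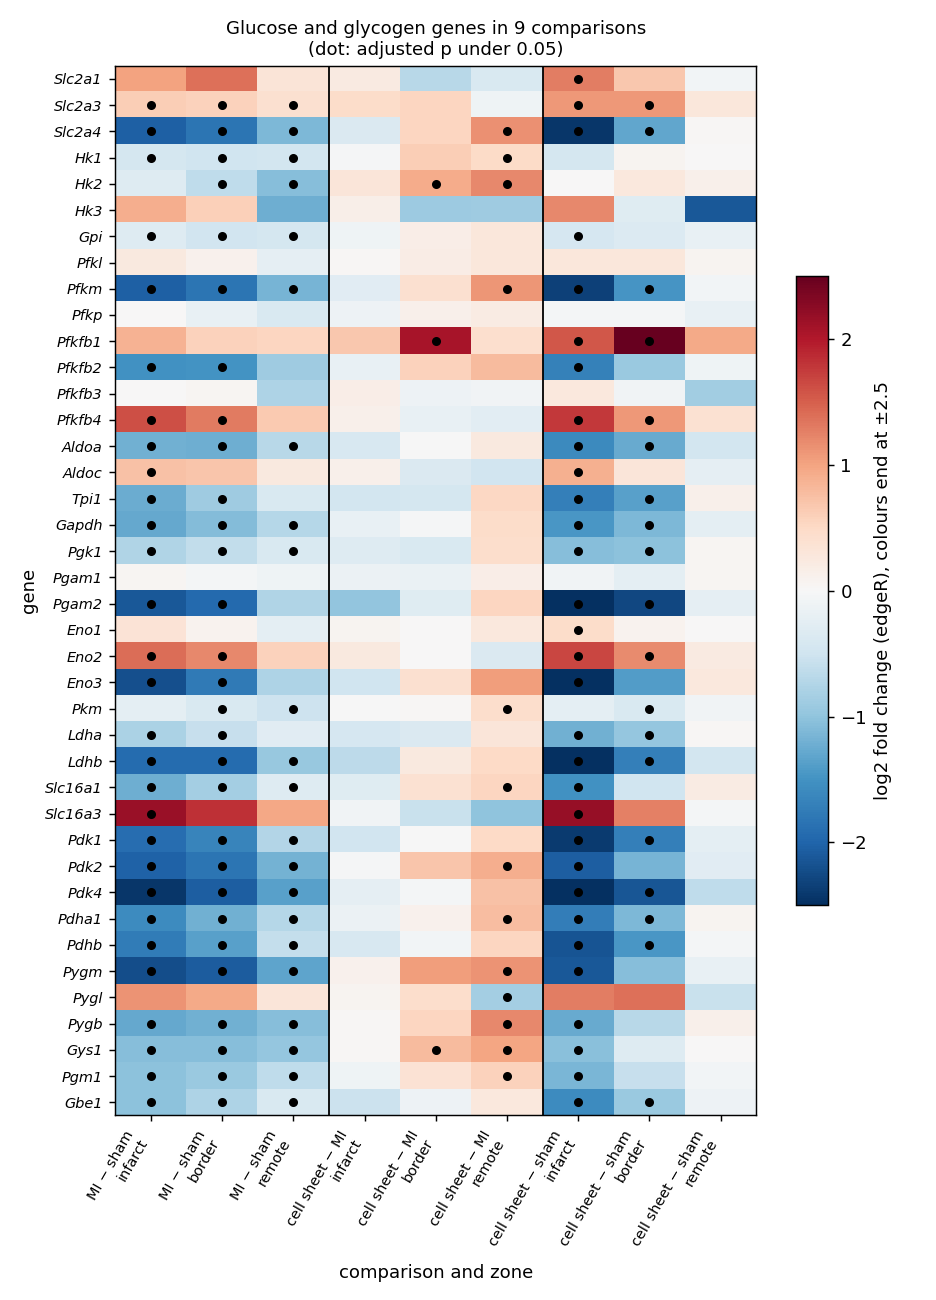
Log2 fold change (colour, red higher and blue lower, ending at ±2.5) of the 40 genes (rows) in the 9 comparisons of 2 groups within a zone (columns), from edgeR fits of 6 against 6 libraries; a dot marks an adjusted p under 0.05. The left block (MI minus sham) is mostly blue in all zones with 24, 26 and 21 genes called lower, the middle block (cell sheet minus MI) holds dots in the remote zone (13) and border zone (3) and none in the infarct zone, and the last column (cell sheet minus sham, remote zone) holds none.

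Among the glucose transporters Slc2a4 was lower than sham after MI in every zone, while the differences of Slc2a1 did not pass the test. Slc2a4, the muscle transporter, had a level of 113 to 507 CPM in the sham infarct zone (median 404), of 14.05 to 226 in MI (median 62.2) and of 9.57 to 252 with the cell sheet (median 21.7). Both infarcted groups overlapped with sham only through sham replicate 5, which held the lowest sham level in every zone. Slc2a4 fell with a log2 fold change of -2.05 ± 0.63 (SE; edgeR adjusted p = 0.0175) in the infarct zone, -1.82 ± 0.52 (edgeR adjusted p = 0.0169) in the border zone and -1.12 ± 0.26 (edgeR adjusted p = 0.00889) in the remote zone. Border zone levels were 99.2 to 459 CPM in sham (median 398), 22.2 to 181 in MI (median 119) and 21.1 to 227 with the cell sheet (median 177). Remote zone levels were 169 to 530 in sham (median 467), 119 to 275 in MI (median 204) and 187 to 642 with the cell sheet (median 434). The treated remote zone libraries were thus mostly above MI, with overlap through cell sheet-treated replicate 1. The rise over MI was 1.14 ± 0.27 (edgeR adjusted p = 0.0173) in the remote zone, and in the border and infarct zones the differences of 0.55 ± 0.58 and -0.36 ± 0.91 did not pass the test. Against sham Slc2a4 was lower in the treated infarct zone (-2.42 ± 0.82, edgeR adjusted p = 0.0246, lost without cell sheet-treated replicate 1 at 0.0518), while the remote zone difference was 0.02 ± 0.29.

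Slc2a1 was above the sham median in all MI libraries of each zone. Its infarct zone levels were 9.62 to 43.7 CPM in sham (median 11.9), 18.5 to 55.8 in MI (median 31.6) and 17.4 to 65.7 with the cell sheet (median 34.2). Its border zone levels were 9.49 to 55.3 in sham (median 12.6), 20.2 to 138 in MI (median 35.7) and 16.3 to 77.1 with the cell sheet (median 22.4). The remote zone values were 12.3 to 44.5 in sham (median 13.7), 18.3 to 34.3 in MI (median 23.7) and 14.4 to 29.3 with the cell sheet (median 17.2). The highest sham library was replicate 5 in each zone. Against sham the differences in MI of 1.00 ± 0.40, 1.37 ± 0.56 and 0.31 ± 0.31, in the order infarct, border, remote, did not pass the test with that animal. Without it all MI libraries lay above all sham libraries, and the log2 fold changes were 1.58, 2.05 and 0.76 (edgeR adjusted p = 0.00014, 0.00242 and 0.00121). Slc2a1 was higher in the treated infarct zone than in sham (1.28 ± 0.43, edgeR adjusted p = 0.0235), a call lost in 5 of 12 fits that left out 1 animal. Slc2a3 (GLUT3), which is found in neurons and blood cells among others, was the only member called higher than sham in MI in every zone. Its log2 fold change was 0.61 ± 0.12 in the infarct zone (edgeR adjusted p = 0.00245), 0.57 ± 0.17 in the border zone (edgeR adjusted p = 0.0188) and 0.40 ± 0.13 in the remote zone (edgeR adjusted p = 0.0375, lost in 6 of 12 fits that left out 1 animal). Levels in the infarct zone were 16.4 to 24.4 CPM in sham and 24.7 to 37.3 in MI, with no overlap. With the cell sheet Slc2a3 was higher than sham in the border zone by 1.09 ± 0.23 (edgeR adjusted p = 0.00283) and in the infarct zone by 1.08 ± 0.16 (edgeR adjusted p = 0.000243).

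The log2 ratio of Slc2a1 to Slc2a4 counts sets the transporters side by side within each library and does not depend on library size. For the infarct zone it ran from -5.45 to -1.37 in sham (median -5.17), from -3.61 to 1.48 in MI (median -0.96) and from -3.85 to 2.71 with the cell sheet (median 0.73). In a 2-sided exact permutation test, adjusted over the 36 ratio comparisons, MI exceeded sham by 3.74 in the infarct zone (adjusted p = 0.026) and by 3.44 in the border zone (exact test, adjusted p = 0.039). The remote zone ratio was -5.33 to -1.92 in sham, -3.62 to -2.27 in MI and -5.27 to -2.68 with the cell sheet. The treated group was lower than MI there (difference -1.50, exact test, adjusted p = 0.039), and 5 of its 6 libraries lay below all MI libraries. The border zone call was lost in 6 and that of the remote zone in 8 of 12 tests that left out 1 animal, with adjusted p up to 0.0668 in both (exact permutation tests). The remote zone difference of MI from sham, 1.55, missed the threshold (exact test, adjusted p = 0.0675) and was 2.08 without sham replicate 5 (exact test, adjusted p = 0.0234).

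**Figure D2:**
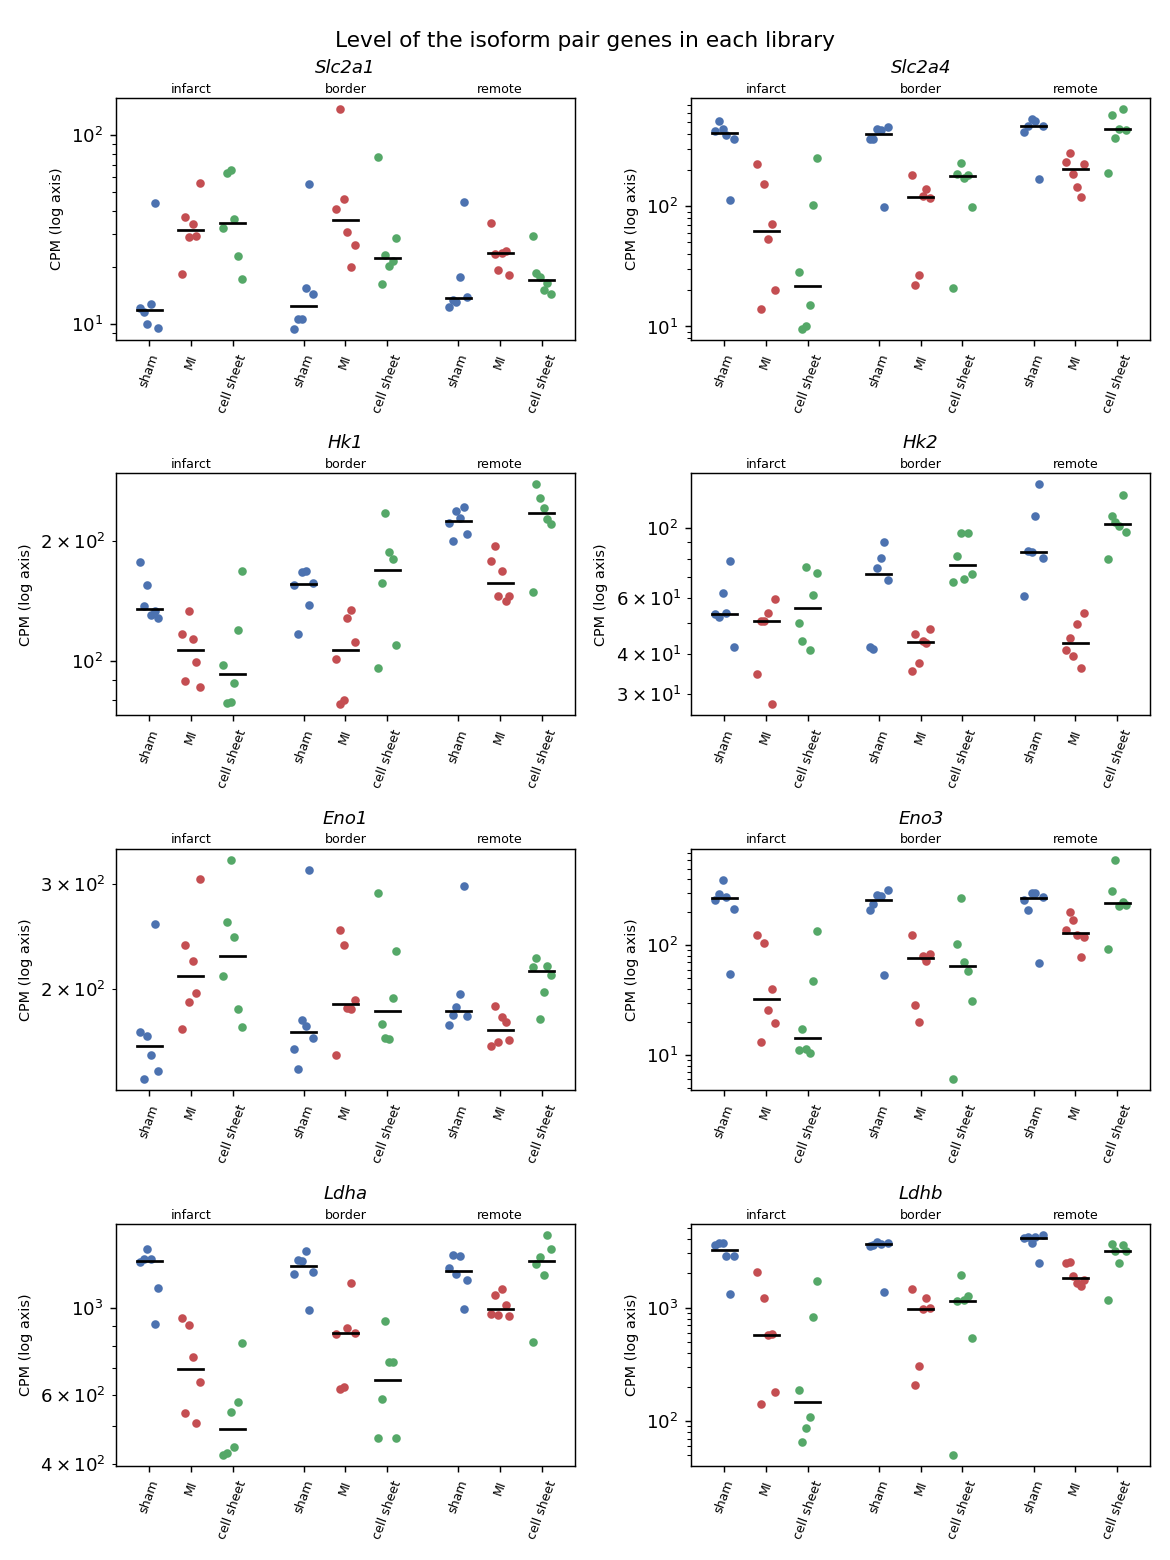
Level of the 8 isoform pair genes (y axis, CPM with TMM factors on a log axis) in each of the 54 libraries, by zone and treatment; points are libraries (blue sham, red MI, green cell sheet) and bars are medians of 6. Single blue points far from the rest in Slc2a1, Slc2a4, Eno1, Eno3 and Ldhb are sham replicate 5, and the green remote and border zone points of Hk2 all lie above the red ones.

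Hexokinases trap glucose in the cell by phosphorylation. Hk2, the insulin-regulated form of muscle, had the lowest adjusted p of the 40 genes for treated against MI hearts in both the border and the remote zone. Its remote zone levels were 60.8 to 137 CPM in sham (median 84.0), 36.1 to 54.1 in MI (median 43.2) and 79.9 to 127 with the cell sheet (median 103). All 6 MI libraries lay below all libraries of both other groups. Hk2 fell by 1.07 ± 0.18 on the log2 scale in MI against sham (edgeR adjusted p = 0.0017) and was higher with the cell sheet than in MI by 1.20 ± 0.12 (edgeR adjusted p = 0.000991), while the treated group and sham differed by 0.13 ± 0.18. Levels in the border zone were 41.4 to 90.1 in sham (median 71.6), 35.3 to 48.0 in MI (median 43.6) and 67.6 to 96.3 with the cell sheet (median 76.5). There Hk2 was lower in MI than in sham (-0.64 ± 0.19, edgeR adjusted p = 0.0202) and higher with the cell sheet than in MI (0.92 ± 0.12, edgeR adjusted p = 0.00073), again with no overlap between treated and MI libraries. Infarct zone levels were 42.1 to 78.5 CPM in sham, 27.8 to 59.8 in MI and 41.2 to 75.4 with the cell sheet, where the groups overlapped and no difference passed the test.

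Hk1, the form found in most tissues, moved less than Hk2 in the remote zone. Its remote zone levels were 199 to 243 CPM in sham (median 224), 141 to 194 in MI (median 157) and 149 to 276 with the cell sheet (median 234). It was lower in MI than in sham in all zones, by -0.44 ± 0.13, -0.50 ± 0.15 and -0.46 ± 0.09 from infarct to remote zone (edgeR adjusted p = 0.0141, 0.0216 and 0.00468). In the treated remote zone it was higher than in MI (0.48 ± 0.14, edgeR adjusted p = 0.0352), a call that was lost in 9 of 12 fits that left out 1 animal. The infarct zone levels were 128 to 177 in sham, 86.5 to 133 in MI and 78.7 to 168 with the cell sheet, and those of the border zone were 117 to 168, 78.2 to 134 and 96.1 to 235. The log2 ratio of Hk1 to Hk2 was 0.83 to 1.86 in sham remote zones, 1.43 to 2.11 in MI and 0.84 to 1.34 with the cell sheet. It was higher in MI than in sham by 0.57 (exact permutation test, adjusted p = 0.042, lost in 8 of 12 tests that left out 1 animal) and lower with the cell sheet than in MI by 0.74 (difference -0.74, exact test, adjusted p = 0.026), where p = 0.00216 is the smallest that 6 against 6 libraries can give. The 6 treated ratios lay below all 6 MI ratios. No difference of this ratio was called in the infarct or border zone.

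Hk3, the hexokinase of myeloid cells, was low in most sham libraries, with a median of 0.665 CPM in the infarct zone, and reached 106 CPM there in sham replicate 5. The MI infarct zone held 6.24 to 75.4 CPM. Its remote zone difference of MI from sham was -1.22 ± 1.27 with that animal and 3.22 ± 0.58 without it (edgeR adjusted p = 0.000466), so that 1 animal set the direction. Without it the infarct zone difference was 5.78 ± 0.72 (edgeR adjusted p = 6.52e-05). In the treated remote zone Hk3 was 0.714 to 16.4 CPM (median 0.814) and in MI 3.11 to 11.1, and the highest treated library was replicate 1. Gpi, which isomerizes glucose phosphate, was lower in MI in each zone, by -0.32 to -0.48 on the log2 scale, with the infarct zone call lost in 6 of 12 fits that left out 1 animal.

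Phosphofructokinase is the committed step of glycolysis. Pfkm, its muscle form, ran from 206 to 827 CPM in sham infarct zones (median 721), from 49.1 to 374 in MI (median 107.6) and from 37.6 to 421 with the cell sheet (median 52.1). The overlap of MI with sham came from sham replicate 5. Pfkm was lower in MI than in sham by -2.04 ± 0.52 in the infarct zone (edgeR adjusted p = 0.00744), -1.83 ± 0.42 in the border zone (edgeR adjusted p = 0.00626) and -1.16 ± 0.24 in the remote zone (edgeR adjusted p = 0.0044). Remote zone levels of Pfkm were 326 to 899 in sham (median 832), 225 to 452 in MI (median 340) and 254 to 966 with the cell sheet (median 802). The treated group exceeded MI there by 1.10 ± 0.27 (edgeR adjusted p = 0.0202, and 0.0509 without MI replicate 5), although the lowest treated library, replicate 1, lay within the MI range. Against sham Pfkm was lower in the treated border zone (-1.47 ± 0.50, edgeR adjusted p = 0.0316, lost in 7 of 12 fits that left out 1 animal). The liver form Pfkl and the platelet form Pfkp were called in no comparison of 2 groups with all animals. Without sham replicate 5 they were higher in the MI infarct zone by 0.35 ± 0.13 and 0.53 ± 0.09 (edgeR adjusted p = 0.0287 and 0.000306).

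The Pfkfb genes encode the bifunctional enzymes that set the level of a bisphosphate that is an activator of phosphofructokinase. Their members went different ways. Pfkfb2, a form abundant in heart, was 44.5 to 169 CPM in sham infarct zones and 27.9 to 79.3 in MI, and was called lower in the infarct (-1.52) and border zones (-1.49). Pfkfb4 was 2.11 to 7.38 CPM in sham and 7.04 to 21.3 in MI infarct zones, where it was higher by 1.61 ± 0.33 (edgeR adjusted p = 0.00251), and it was higher by 1.29 ± 0.33 in the border zone (edgeR adjusted p = 0.00957). It was also higher than sham with the cell sheet, by 1.77 ± 0.30 in the infarct zone (edgeR adjusted p = 0.000607) and 1.09 ± 0.22 in the border zone (edgeR adjusted p = 0.00217). Pfkfb3 was 29.9 to 33.7 CPM in 5 sham infarct zones and 174 in sham replicate 5, and was called in no comparison of 2 groups with that animal. Without it Pfkfb3 was higher in MI by 0.84 ± 0.18 in the infarct and 0.86 ± 0.20 in the border zone (edgeR adjusted p = 0.00186 and 0.00265), and by 0.99 ± 0.21 and 0.69 ± 0.19 with the cell sheet (edgeR adjusted p = 0.00139 and 0.00798). Pfkfb1, a form of liver, muscle and fat, was a low-count gene that stood out in treated border zones, at 0.679 to 12.7 CPM (median 6.78) against 0.357 to 2.80 in MI and 0.552 to 1.52 in sham. It was higher there than in MI by 2.06 ± 0.66 (edgeR adjusted p = 0.0481, lost in 9 of 12 fits that left out 1 animal) and than in sham by 2.60 ± 0.64 (edgeR adjusted p = 0.0063), and higher than sham by 1.55 ± 0.34 in the infarct zone (edgeR adjusted p = 0.00267). The adipocyte score ran from -1.78 to 6.70 in treated border zones (median 5.11), from -1.85 to 2.39 in MI and from -2.02 to -1.63 in sham, and 2 of the 5 adipocyte markers tested were higher than in MI. With this score as a covariate the Pfkfb1 differences were -0.33 and -0.79.

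The enzymes from aldolase to phosphoglycerate kinase split and oxidize the sugar phosphates. Aldoa, Gapdh and Pgk1 were lower in MI in all zones, Tpi1 in the infarct and border zones. Gapdh, widely used as a reference gene, was 1967 to 4391 CPM in sham infarct zones, 967 to 2222 in MI and 941 to 2278 with the cell sheet. Its log2 fold change in MI was -1.28 in the infarct, -1.08 in the border and -0.71 in the remote zone. All MI border zone libraries lay below all sham ones for Gapdh. Aldoc, a form known from brain, was higher in the MI infarct zone (0.73 ± 0.28, edgeR adjusted p = 0.0464, lost in 9 of 12 fits that left out 1 animal) and in the treated infarct zone (0.89 ± 0.23, edgeR adjusted p = 0.00654), both against sham. With the cell sheet Aldoa, Tpi1, Gapdh and Pgk1 remained below sham in the infarct and border zones, and none of them was called against MI in any zone.

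Phosphoglycerate mutase and enolase have muscle forms, Pgam2 and Eno3, which fell together. Pgam2 was 123 to 702 CPM in sham infarct zones (median 543), 9.36 to 338 in MI (median 68.1) and 5.99 to 200 with the cell sheet (median 9.07). Treated replicates 5 and 6 lay above the MI median, and the other 4 treated libraries were at 5.99 to 9.14 CPM. The skeletal muscle score was 4.98 in treated replicate 6 and 3.31 in replicate 2 of this zone and 0.16 to 0.53 in the other 4, and 3 of the 4 skeletal muscle markers tested were higher than in sham. Without these 2 animals 32 of the 40 genes (80%; all genes 56.9%) were called in treated against sham infarct zones. In replicate 6 Pgam2 was at 200.3 CPM, Eno3 at 134 and Pygm at 451, and in replicate 2 Eno3 was at 17.2 and Pygm at 12.8 CPM. The cardiomyocyte score of these treated infarct zones was 11.7 in replicate 6, 10.5 in replicate 5 and 6.54 to 8.62 in the other 4. The part of either muscle type in these levels was not tested. Pgam2 was lower in MI than in sham by -2.11 ± 0.75 in the infarct zone (edgeR adjusted p = 0.0343) and -1.95 ± 0.52 in the border zone (edgeR adjusted p = 0.0124), and lower with the cell sheet than in sham by -3.10 ± 0.97 (edgeR adjusted p = 0.0174) and -2.28 ± 0.66 (edgeR adjusted p = 0.0156). The infarct zone call of MI against sham was lost in 7 of 12 fits that left out 1 animal. Pgam1, the form of most tissues, was called in no comparison.

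Eno3 was 55.3 to 391 CPM in sham infarct zones (median 270), 13.2 to 124 in MI (median 32.6) and 10.5 to 134 with the cell sheet (median 14.3). Border zone levels of Eno3 were 53.7 to 319 in sham (median 261), 20.0 to 124 in MI (median 76.2) and 5.99 to 269 with the cell sheet (median 64.4). Its remote zone levels were 69.3 to 302 in sham (median 269), 77.9 to 203 in MI (median 131) and 93.5 to 603 with the cell sheet (median 243). The sham minimum was replicate 5 in each zone. Eno3 fell by 2.19 ± 0.60 on the log2 scale in the MI infarct zone (edgeR adjusted p = 0.0102) and by 1.76 ± 0.48 in the border zone (edgeR adjusted p = 0.0129), and it was lower than sham in the treated infarct zone (-2.69 ± 0.73, edgeR adjusted p = 0.0084). The remote zone differences, -0.78 ± 0.31 in MI against sham and 1.04 ± 0.35 in treated against MI hearts, missed the threshold (edgeR adjusted p = 0.0791 and 0.056). Without sham replicate 5 the first was -0.97 and without treated replicate 1 the second was 1.22, both called (edgeR adjusted p = 0.000748 and 0.00345).

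Eno1, the enolase of most tissues, and Eno2, known as the neuronal form, were called lower in no comparison of MI with sham. Eno1 was 140 to 257 CPM in sham infarct zones (median 160), 171 to 306 in MI (median 210) and 172 to 330 with the cell sheet (median 227), and higher than sham only in the treated infarct zone (0.45 ± 0.18, edgeR adjusted p = 0.0431), a call lost with DESeq2 (adjusted p = 0.0576) and in 8 of 12 fits that left out 1 animal (edgeR adjusted p up to 0.188). With the cardiomyocyte score as a covariate its difference was -0.17. Its border zone levels were 146 to 318 in sham, 154 to 252 in MI and 165 to 291 with the cell sheet, and those of the remote zone 174 to 298, 160 to 187 and 178 to 225. Eno2 rose in MI by 1.39 ± 0.30 in the infarct zone (edgeR adjusted p = 0.00325) and 1.20 ± 0.31 in the border zone (edgeR adjusted p = 0.0107). In treated hearts it was above sham by 1.68 ± 0.26 in the infarct zone (edgeR adjusted p = 0.000368) and by 1.19 ± 0.29 in the border zone (edgeR adjusted p = 0.00661). The log2 ratio of Eno1 to Eno3 ran from -1.23 to 2.22 in sham infarct zones (median -0.74), from 0.46 to 4.16 in MI (median 2.72) and from 0.36 to 4.86 with the cell sheet (median 4.07). It exceeded sham by 2.83 in MI (exact permutation test, adjusted p = 0.039) and by 3.66 with the cell sheet (exact test, adjusted p = 0.026). No other difference of this ratio was called. The call of MI in the infarct zone was lost in 9 of 12 tests that left out 1 animal, with adjusted p up to 0.0612 in exact tests.

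**Figure D3:**
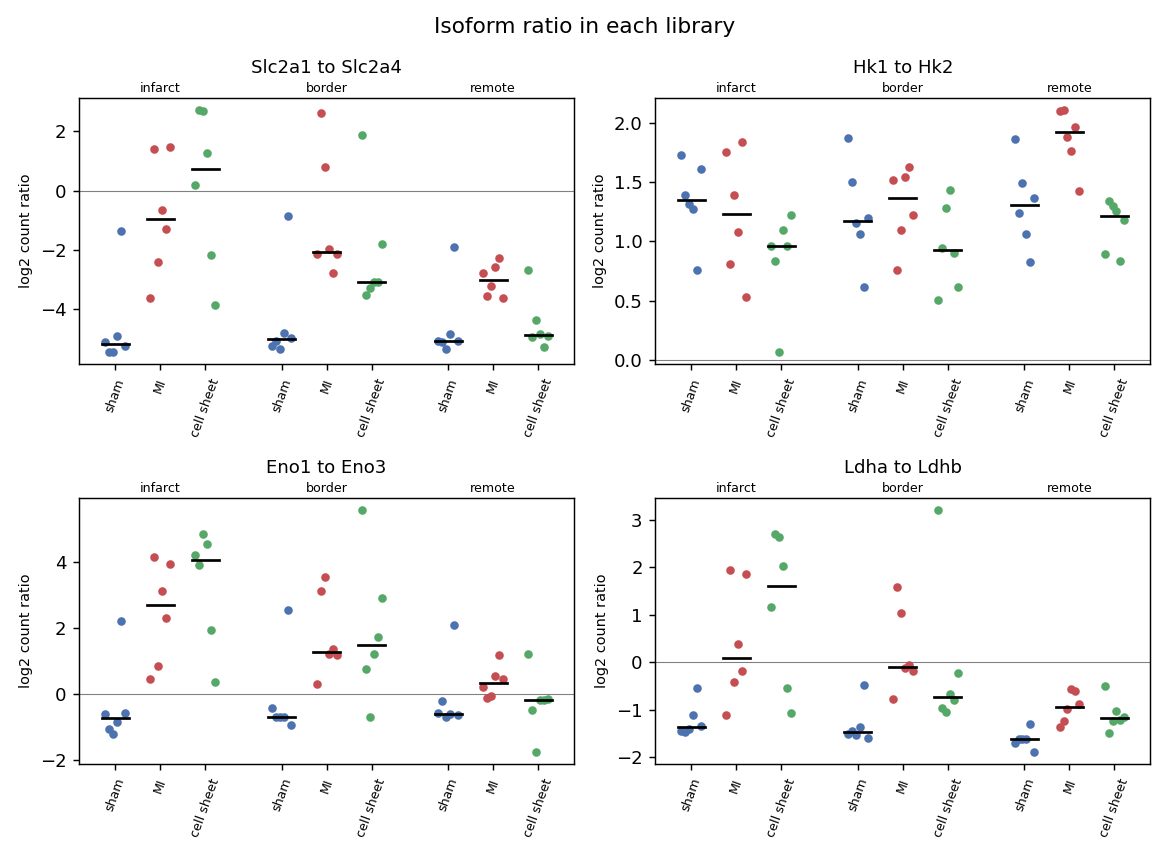
Log2 ratio of counts within each isoform pair (y axis; a grey line marks equal counts) in each of the 54 libraries, by zone and treatment; points are libraries (blue sham, red MI, green cell sheet) and bars are medians of 6. The Ldha to Ldhb ratio is higher in MI than in sham in all zones, and in the remote zone the Hk1 to Hk2 ratio of the 6 treated libraries lies below that of the 6 MI libraries.

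Pyruvate kinase (Pkm) closes glycolysis and lactate dehydrogenase interconverts pyruvate and lactate. Pkm was lower in MI than in sham in the border (-0.38) and remote zones (-0.52), and higher in treated than in MI remote zones (0.45), a call lost in 10 of 12 fits that left out 1 animal. Ldhb, the subunit that prevails in heart, ran from 1315 to 3709 CPM in sham infarct zones (median 3189), from 141 to 2036 in MI (median 576) and from 65.9 to 1696 with the cell sheet (median 148). Its border zone levels were 1370 to 3770 in sham (median 3587), 207 to 1458 in MI (median 974) and 50.5 to 1914 with the cell sheet (median 1150). Its remote zone levels were 2452 to 4330 in sham (median 4125), 1534 to 2537 in MI (median 1831) and 1157 to 3610 with the cell sheet (median 3145). In sham only replicate 5 overlapped with MI. Ldhb was lower in MI than in sham by -1.93 ± 0.59, -1.92 ± 0.46 and -0.95 ± 0.18 from infarct to remote zone (edgeR adjusted p = 0.0174, 0.0079 and 0.00312), and with the cell sheet by -2.59 ± 0.81 and -1.70 ± 0.60 in the infarct and border zones (edgeR adjusted p = 0.0165 and 0.0364, the latter lost in 9 of 12 fits that left out 1 animal).

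Ldha, the subunit that prevails in skeletal muscle and hypoxic tissue, fell less. It was 907 to 1410 CPM in sham infarct zones (median 1316), 509 to 941 in MI (median 698) and 422 to 811 with the cell sheet (median 491), which lay wholly below sham. Border zone levels of Ldha were 984 to 1396 in sham, 619 to 1158 in MI and 465 to 927 with the cell sheet, with remote zone levels of 993 to 1359, 954 to 1115 and 816 to 1530. Its log2 fold change in MI was -0.80 ± 0.19 in the infarct zone (edgeR adjusted p = 0.00521), -0.57 ± 0.17 in the border zone (edgeR adjusted p = 0.0217) and, not past the threshold, -0.28 ± 0.10 in the remote zone. The log2 ratio of Ldha to Ldhb therefore shifted in every zone. The remote zone ratio was -1.88 to -1.30 in sham (median -1.62), -1.37 to -0.56 in MI (median -0.94) and -1.48 to -0.50 with the cell sheet (median -1.18). MI exceeded sham by 1.62, 1.56 and 0.68 from infarct to remote zone (exact permutation test, adjusted p = 0.026 for each). With the cell sheet the ratio exceeded sham by 2.37 in the infarct zone and by 0.52 in the remote zone (exact test, adjusted p = 0.026 for both), and by 1.23 in the border zone (exact test, adjusted p = 0.0501). Leaving out sham replicate 1, 2, 3, 4 or 6 raised the infarct zone value to the same 0.0501 (exact test). It was not called between treated and MI hearts in any zone. Thus the remote zone of treated hearts differed from sham in this ratio, with all 6 treated libraries above 5 of 6 sham libraries. No single gene of the 40 was called against sham there. Those calls came from another test, adjusted over 15157 genes, while the ratio was adjusted over 36 comparisons. The 2 results therefore cannot be set against each other.

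The monocarboxylate transporters carry lactate across the cell membrane and showed opposite changes. Slc16a1 (MCT1) was 279 to 481 CPM in sham infarct zones and 80.1 to 332 in MI, and was lower in MI by -1.22, -0.84 and -0.32 from infarct to remote zone. The border zone call was lost in 3 and the remote zone call in 9 of 12 fits that left out 1 animal. In the treated remote zone it was higher than in MI by 0.53 (edgeR adjusted p = 0.0328, lost in 9 of 12 fits that left out 1 animal). Slc16a3 (MCT4), the exporter of glycolytic cells, was 1.73 to 4.02 CPM in 5 sham infarct zones, 20.8 in sham replicate 5 and 8.10 to 48.9 in MI. It rose by 2.17 ± 0.65 in the MI infarct zone (edgeR adjusted p = 0.0159), and by 2.17 ± 0.66 against sham in the treated infarct zone (edgeR adjusted p = 0.0146, and 0.051 without treated replicate 3). Remote zone levels of Slc16a3 were 5.69 to 13.0 CPM in MI and, apart from 15.0 in replicate 1, 2.83 to 3.87 in treated hearts. That difference was -1.01 ± 0.42 with this animal (edgeR adjusted p = 0.106) and -1.71 ± 0.21 without it (edgeR adjusted p = 0.00017).

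Pyruvate dehydrogenase joins glycolysis to mitochondrial oxidation and is switched off by the Pdk kinases. Members on both sides fell after MI, while Pdk3, a kinase gene outside the 40, was higher in the infarct (1.15 ± 0.29, edgeR adjusted p = 0.0067) and border zones (1.11 ± 0.38, edgeR adjusted p = 0.035). Pdk4 was 29.8 to 122 CPM in sham infarct zones (median 89.4), 5.04 to 43.7 in MI (median 10.3) and 2.55 to 48.4 with the cell sheet (median 4.38). Its log2 fold change in MI was -2.43 ± 0.53 in the infarct zone (edgeR adjusted p = 0.00346), -2.05 ± 0.53 in the border zone (edgeR adjusted p = 0.0107) and -1.36 ± 0.26 in the remote zone (edgeR adjusted p = 0.00311), the most negative called values of the 40 genes in the infarct and remote zones. Pdk2 was lower in the remote zone by -1.18 ± 0.22 (edgeR adjusted p = 0.00279), and its remote zone levels were 237 to 624 CPM in sham (median 581), 179 to 314 in MI (median 221) and 184 to 580 with the cell sheet (median 473). Pdk1 and the subunits Pdha1 and Pdhb were lower in MI in all zones, by -0.59 to -1.91 on the log2 scale. With the cell sheet Pdk4 was below sham by -2.65 ± 0.76 in the infarct zone (edgeR adjusted p = 0.0112) and -2.13 ± 0.44 in the border zone (edgeR adjusted p = 0.00245), and Pdk1 by -1.70 ± 0.39 in the border zone (edgeR adjusted p = 0.00445). Against MI, Pdk2 (0.90, lost in 6 of 12 fits that left out 1 animal) and Pdha1 (0.78) were higher in the treated remote zone. Pdk4 in that comparison, 0.73 ± 0.27, missed the threshold (edgeR adjusted p = 0.075).

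Glycogen phosphorylases release glucose units from glycogen. Levels of the muscle form Pygm were 180 to 734 CPM in sham infarct zones (median 552), 29.3 to 259 in MI (median 78.1) and 12.8 to 451 with the cell sheet (median 38.0). Remote zone levels of Pygm were 523 to 966 in sham (median 919), 229 to 548 in MI (median 307) and 285 to 983 with the cell sheet (median 869). Pygm was lower in MI than in sham by -2.22 ± 0.57 in the infarct zone (edgeR adjusted p = 0.00791), -2.08 ± 0.48 in the border zone (edgeR adjusted p = 0.00659) and -1.31 ± 0.21 in the remote zone (edgeR adjusted p = 0.00151). In treated remote zones it was higher than in MI by 1.13 ± 0.28 (edgeR adjusted p = 0.02, and 0.05 without MI replicate 5). The brain form Pygb rose in the same comparison by 1.20 ± 0.24 (edgeR adjusted p = 0.0104), from 148 to 267 CPM in MI to 195 to 601 in treated hearts. The liver form Pygl went the other way, from 10.6 to 19.3 CPM in MI to 5.07 to 15.6 in treated hearts (-0.85 ± 0.24, edgeR adjusted p = 0.0319, lost in 9 of 12 fits that left out 1 animal).

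Gys1, the glycogen synthase of muscle, separated treated from MI hearts in the remote zone only. Its remote zone levels were 98.7 to 163 CPM in sham (median 137), 53.2 to 90.4 in MI (median 70.7) and 91.4 to 170 with the cell sheet (median 142). All MI libraries lay below all libraries of both other groups. Gys1 was lower in MI than in sham by -0.97 ± 0.13 (edgeR adjusted p = 0.000874) and higher with the cell sheet than in MI by 0.99 ± 0.15 (edgeR adjusted p = 0.00602). Border zone levels of Gys1 were 45.4 to 121 in sham, 29.8 to 49.0 in MI and 34.7 to 113 with the cell sheet, which exceeded MI by 0.79 ± 0.25 (edgeR adjusted p = 0.0431, lost in 10 of 12 fits that left out 1 animal). Infarct zone levels of Gys1 overlapped, at 27.7 to 59.3 in MI and 29.6 to 83.0 with the cell sheet, and that difference was not called. Pgm1, which links glycogen breakdown to glycolysis, and the branching enzyme Gbe1 were lower in MI in all zones, with the border zone call of Gbe1 lost in 7 of 12 fits that left out 1 animal, and Pgm1 was higher in treated than in MI remote zones (0.57, lost in 8 of 12 fits that left out 1 animal). Hk2, Gys1 and Pfkl were the 3 genes of the 40 whose treated and MI remote zone libraries did not overlap (7.5%, all higher; 3.14% of all genes tested were higher and 1.83% lower with no overlap), and Pfkl (0.29 ± 0.09) just missed the threshold (edgeR adjusted p = 0.0518).

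**Figure D4:**
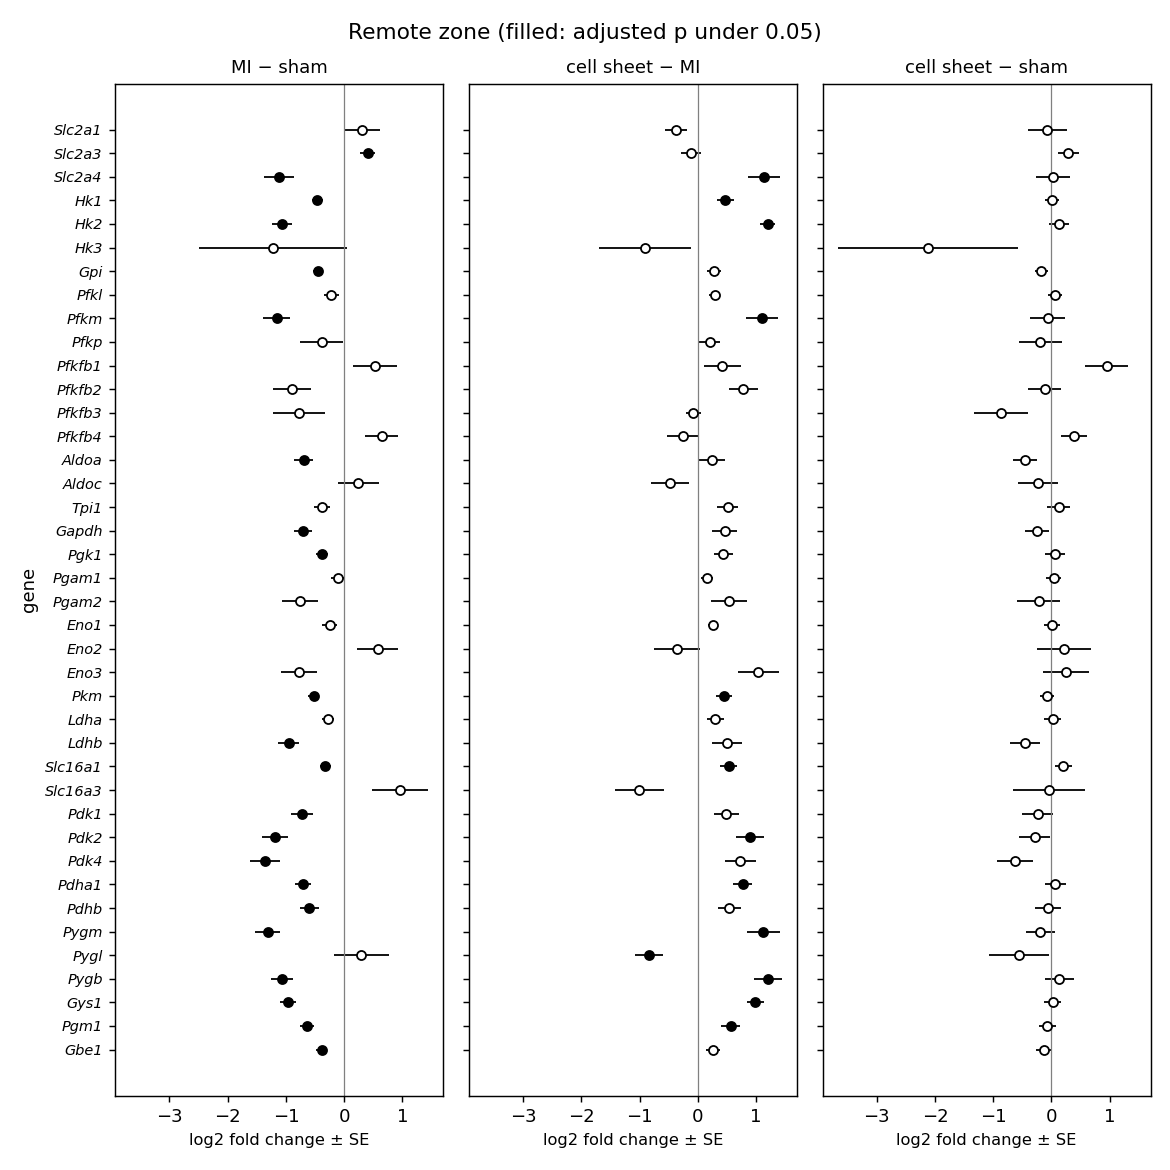
Log2 fold change with its standard error (x axis) of the 40 genes (rows) in the remote zone for MI minus sham, cell sheet minus MI and cell sheet minus sham, from edgeR fits of 6 against 6 libraries; filled points have an adjusted p under 0.05. The left panel holds 22 filled points, 21 of them below 0, the middle panel 13, 12 of them above 0, and the right panel none; neighbouring panels share a group of libraries.

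An interaction test, blocked by animal, asked whether MI had a different effect in the infarct than in the remote zone. It differed for 16 of the 40 genes, 9 with a more negative effect in the infarct zone (22.5%; background 15.3%) and 7 with a more positive one (17.5%; background 13.6%). The more negative were led by Pgam2 (-2.07 ± 0.73, edgeR adjusted p = 0.0457), Eno3 (-1.74 ± 0.52, edgeR adjusted p = 0.0228), Pdk1 (-1.43 ± 0.33, edgeR adjusted p = 0.00758), Pdk4 (-1.33 ± 0.43, edgeR adjusted p = 0.0331) and Pdhb (-1.32 ± 0.34, edgeR adjusted p = 0.0117). The more positive were led by Hk3 (1.94 ± 0.66, edgeR adjusted p = 0.041), Slc16a3 (1.27 ± 0.42, edgeR adjusted p = 0.0338), Pygl (0.84 ± 0.26, edgeR adjusted p = 0.028), Pfkfb3 (0.74 ± 0.19, edgeR adjusted p = 0.0112) and Hk2 (0.71 ± 0.16, edgeR adjusted p = 0.00655). Hk2 thus differed more from sham in the remote than in the infarct zone. The calls of Pgam2, Hk3, Slc16a3 and Pdk4 were lost in 7 or 8 of 12 fits that left out 1 animal. The cardiomyocyte list moved with the first group, with 8 of 12 markers more negative in the infarct zone. The number of genes called was 9 without MI replicate 6 or sham replicate 2, 10 without sham replicate 3 and 26 without MI replicate 1. The share of all genes called in these fits is not set beside these numbers. They show only that the count depended on single animals. The effect of the cell sheet differed between border and remote zones for 0 of the 40 genes by edgeR (background 0% in both directions). An unadjusted p under 0.05 was found for 8 of the 40 genes and for 3430 of all 16784 genes tested (edgeR). DESeq2 called 4 of the 40. The share of all genes that DESeq2 called there is not given.

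Other genes of these pathways were taken from lists of the same pathways. Among all genes tested in MI against sham, 27.2%, 23.2% and 14.2% were lower from infarct to remote zone. In the same order 22.7%, 18.4% and 11.7% were higher. In treated against MI hearts 10.3% of all genes were higher and 6.79% lower in the remote zone, and 8.47% higher and 9.48% lower in the border zone. Whether a list differed from these shares was not tested. Of 19 further glycolysis and pyruvate genes tested, 15 were lower and 2 higher in the MI infarct zone, 14 and 3 in the border zone, and 8 and 1 of 18 in the remote zone. Fbp2, the muscle form of fructose bisphosphatase, was the lowest in the infarct zone (-2.26 ± 0.61, edgeR adjusted p = 0.00947). It was a low-count gene, with an average log2 CPM of -0.10 in this comparison. Of 16 further glycogen genes 12, 12 and 9 were lower from infarct to remote zone and 1 was higher in each. Ppp1r3a, a glycogen-targeting subunit of a protein phosphatase, fell by 2.27 ± 0.60 in the infarct zone (edgeR adjusted p = 0.00897). In the treated remote zone 7 of the 18 glycolysis and pyruvate genes and 7 of the 16 glycogen genes were higher than in MI, and 0 and 1 lower. Of 7 pentose phosphate genes 3 were higher and 1, Pgls, lower (-0.63 ± 0.23, edgeR adjusted p = 0.0399) in the MI infarct zone. In the border zone 3 were higher and 0 lower, and in the remote zone 1 was higher and 0 lower. Among the higher genes was the transketolase gene Tkt (1.05 ± 0.23, edgeR adjusted p = 0.00358, in the infarct zone). Of 16 insulin and AMPK signalling genes 9, 9 and 8 were lower in MI in the 3 zones, and 5 were higher in treated than in MI remote zones, led by the insulin receptor substrate Irs2 (1.05 ± 0.31, edgeR adjusted p = 0.037). Irs1 led the 4 of this list that were higher in treated border zones (1.27 ± 0.17, edgeR adjusted p = 0.000857). Of 13 hypoxia response genes tested 5 were higher and 5 lower in the MI infarct zone, with Ndrg1 the highest (1.08 ± 0.30) and Bnip3 the lowest (-1.43 ± 0.35, edgeR adjusted p = 0.011 and 0.00565).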

How the data were processed

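Polyadenylated RNA of 54 left ventricular samples was sequenced. The deposited files hold raw read counts per gene for each library, which the authors made after alignment to mRatBN7.2. The counter and its strand setting were not given in the sources used here, and DESeq2 is named among the authors' tools. Lines that name no gene held 17.0% to 42.8% of the listed totals and were left out. The 12699204 to 23397754 counts per library limit the precision of low genes.

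Counts were tested with edgeR 4.0.16 (quasi-likelihood F test, TMM factors, filterByExpr; R 4.3.3), fitting the 2 groups compared within a zone. P-values were adjusted by Benjamini-Hochberg over all genes tested, with a threshold of 0.05. Differences between zones were tested as interactions with the animal as a block. CPM values use TMM factors over the 54 libraries. Marker scores are the mean over a list of edgeR's log2 CPM, with a prior count of 2 and without TMM factors. The Dixon checks of gene levels used log2 of CPM plus 0.1. Isoform ratios are log2 ratios of counts with 0.5 added, compared by 2-sided exact permutation tests (scipy 1.17.1) and adjusted over 36 comparisons.

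The genes named by fold change are the 5 highest and 5 lowest called members of each comparison and the isoform pairs. Others were named for their role. The values of 1 gene outside the members are not reported here. The members and lists were chosen with earlier results of these data known. Alternatives were DESeq2 1.42.0, other filters, no TMM, a replicate block, all 3 groups in 1 fit, marker scores as covariates and leaving out animals. The scripts were tested on simulated data. Same-numbered animals correlated above 0.1 in 1 or 2 of 6 pairs per comparison, so the numbers were not taken as pairs.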

Additional observations from a re-analysis of the deposited data

Results flagged for a closer look

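In each group of 6 libraries the highest and lowest level of the 8 isoform pair genes and of the 4 ratios were checked for a gap to the nearest library that is wide against the group's range (Dixon's test at the 95% level, on the log2 scale). It was passed 33 times, where chance gives about 1 in 20 groups, and all but 1 came from sham replicate 5 or cell sheet-treated replicate 1. Sham replicate 5 was the highest sham library for Slc2a1 with gaps of 0.814, 0.722 and 0.714 of the range in the infarct, border and remote zones, and the lowest for Slc2a4 with 0.779, 0.839 and 0.783. It was the highest for Eno1 with 0.692, 0.752 and 0.780, the lowest for Eno3 with 0.697, 0.772 and 0.759, and the lowest for Ldhb with 0.742, 0.915 and 0.738. Its ratio of Slc2a1 to Slc2a4 was the highest with 0.871, 0.875 and 0.857, that of Eno1 to Eno3 with 0.809, 0.851 and 0.834, and that of Ldha to Ldhb in the border zone with 0.808.

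Cell sheet-treated replicate 1 was the highest of its group for Slc2a1 in the border zone (0.640) and the remote zone (0.637) and the lowest for Slc2a4 in the border zone (0.651), for Hk1 in the remote zone (0.633), for Ldha in the remote zone (0.629) and for Ldhb in the border and remote zones (0.651 and 0.662). Its ratio of Slc2a1 to Slc2a4 was the highest in the border (0.682) and remote zones (0.653), and that of Ldha to Ldhb in the border zone (0.805). Treated replicate 3 had the lowest ratio of Hk1 to Hk2 in the infarct zone (0.667).

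The effect of MI differed between infarct and remote zone by the interaction test for 16 genes, with log2 differences of 0.71 for Hk2, 1.94 for Hk3, 0.46 for Pfkl, 0.74 for Pfkfb3, 0.58 for Eno1, 1.27 for Slc16a3 and 0.84 for Pygl, which were more positive in the infarct zone. Those more negative there were Tpi1 (-0.95), Pgam2 (-2.07), Eno3 (-1.74), Slc16a1 (-1.10), Pdk1 (-1.43), Pdk4 (-1.33), Pdha1 (-1.04), Pdhb (-1.32) and Gbe1 (-0.72).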

How the results depend on the processing

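Over fits that left out 1 animal, 1723 of 1944 values of called genes kept their direction and call, 221 lost the call and 0 changed sign. Over the other settings 1048 of 1309 did so, 253 lost it and 8 changed sign. With the cardiomyocyte score as a covariate these were Aldoc (-0.0092) and Pgam2 (0.23) for MI against sham in the infarct zone, Gbe1 (0.047) in the border zone, and Eno1 (-0.17), Pygm (0.36) and Slc2a1 (-0.29) for treated against sham in the infarct zone. With the adipocyte score they were Pfkfb1 against MI (-0.33) and against sham (-0.79) in the treated border zone.

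With the cardiomyocyte score 0 genes were called in the infarct zone for MI and for treated hearts against sham. In the border zone 5 were called for MI against sham and 14 (11 higher, 3 lower) for treated against MI. Of all genes tested in the same fits 5.81%, 7.66%, 7.28% and 28.7% were called, in this order. Without the score these shares were 49.9%, 57.9%, 41.7% and 18%. With the adipocyte score the counts against sham were 15 for MI and 2 for treated hearts in the infarct zone. They were 18 and 0 in the border zone, and 5 (4 higher, 1 lower) for treated against MI in the remote zone. Of all genes tested in the same fits 24.4%, 12.3%, 21.8%, 7.66% and 9.09% were called, in this order. Without this score these shares were 49.9%, 57.9%, 41.7%, 43.6% and 17.1%. DESeq2 called 21 for treated against MI in the remote zone (20 higher, 1 lower), and 24.8% of all genes tested. It called 4 lower for the border against the remote zone effect of the cell sheet. Without the expression filter 1 gene was called for treated against MI hearts in the border zone, and 7.2% of all genes tested. Leaving out 1 animal gave 1 to 4 genes in that comparison (11.8% to 18.8% of all genes). For treated against sham in the border zone it gave 16 to 32 (all genes 35.9% to 61.6%). Without both sham replicate 5 and treated replicate 1 the number there was 33 (all genes 60.7%). For treated against MI in the remote zone it was 5 to 32 (all genes 7.04% to 41.6%). The interaction of MI with zone had 9 to 26, and the share of all genes called in those fits is not given.

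With the replicate number as a block, which is a hint at most since the numbers did not pair the animals, 1 gene was called for treated against MI hearts in border tissue and 0 in the remote zone. Of all genes tested 7.46% and 0.013% were called in these fits, in this order, against 18% and 17.1% without the block. At most 2 of 6 animals correlated best with their own number. The 13 called ratios missed the threshold in the paired exact test, with adjusted p of 0.125 to 0.15. This test could not decide whether the calls hold, because 6 pairs allow few sign patterns and its smallest p is large. After adjustment over all ratio comparisons that smallest p passes only if most of them reach it. No conclusion is drawn from these misses. The differences were the same as before. They were 3.74, 3.44, -1.50 and 4.72 for Slc2a1 to Slc2a4, and 0.57 and -0.74 for Hk1 to Hk2. For Eno1 to Eno3 they were 2.83 and 3.66, and for Ldha to Ldhb 1.62, 1.56, 0.68, 2.37 and 0.52.

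Leaving out 1 animal moved ratios across the threshold in these ranges. Slc2a1 to Slc2a4 ran from 2.73 to 4.15 and 1.40 to 2.08 for MI against sham in the border and remote zones, -1.86 to -1.34 for treated against MI in the remote zone and 1.44 to 2.95 for treated against sham in the border zone. Hk1 to Hk2 ran from 0.47 to 0.68 (MI against sham, remote) and -0.60 to -0.33 (treated against sham, infarct). Eno1 to Eno3 ran from 2.5 to 3.35, 1.60 to 2.49 and 0.32 to 0.92 for MI against sham in the 3 zones, -0.93 to -0.33 for treated against MI in the remote zone and 1.34 to 2.62 for treated against sham in the border zone. Ldha to Ldhb ran from 2.06 to 2.81 and 0.58 to 1.43 for treated against sham in the infarct and border zones. The cause of these changes was not tested.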
